A study of Mus musculus with 22 samples.

Results

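Egr1, Egr2, Egr3, Nr4a1, Nr4a2, Nr4a3, Ier2, Ier3 and Btg2 are 9 mouse early-response genes, taken by symbol from an expression table of 23953 genes. All 9 symbols were found, in 10 transcript rows, and for Nr4a2 the transcript with the higher mean level was used. They were followed in 10 RNA libraries and through the chromatin immunoprecipitation (ChIP-seq) peaks of 12 libraries within 20 kb of each transcription start. BV2, an immortalised mouse microglial line, had been transduced with lentivirus from the empty vector pCDH, or from the same vector with an N-terminal fragment of human huntingtin that carries 15 glutamines (Nwt, the wild-type fragment) or 128 glutamines (Nmu, the mutant fragment). The vector's name gives a CMV promoter and puromycin resistance, and the cells otherwise had no treatment. Each construct has 2 RNA libraries, 1 of 24 h and 1 whose time is 6 h in the table's header and 48 h in the labels, called the second time below with no order assumed. The primary cells come from mice homozygous for huntingtin with 7 (Q7/7) or 175 (Q175/175) glutamines, and are microglia of the adult brain or macrophages grown from bone marrow, 1 RNA library each. Microglia were taken from cortex, striatum and hippocampus by a Percoll gradient and a cell sort, and macrophages were cultured in L-cell medium, so cell type and preparation cannot be told apart. The age of the mice and the number pooled are not given in the sources used here. The labels do not say whether libraries are separate cultures or animals, so part of any spread may be technical. Each construct and time, and each cell type and genotype, has 1 library. The spread behind the p-values is therefore how far differences vary between times or constructs, or between cell types or genotypes. It is not a spread between replicates.

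Early-response genes are transcribed within minutes of a stimulus without new protein synthesis. ERK, p38 and calcium signals then act on factors that already sit at the promoters, such as CREB and SRF with its ELK partners. EGR1, EGR2 and EGR3 are zinc-finger transcription factors that bind GC-rich sites, and NR4A1 (Nur77), NR4A2 (Nurr1) and NR4A3 (NOR1) are orphan nuclear receptors known for restraining inflammatory genes in macrophages. IER2 is a nuclear protein of the early response, IER3 (IEX-1) affects survival and ERK signalling and is a known NF-kB target, and BTG2 is an antiproliferative protein that recruits the CCR4-NOT deadenylase to messenger RNA.

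Levels are RPKM (reads per kilobase of transcript and per M reads mapped, M for mega), which are scaled by length and so allow genes to be compared. The read depth implied by the RPKM steps was 10.8 to 14.0 M reads in the BV2 libraries and 28.8 to 47.8 M in the primary libraries. The 8 microglial markers summed to 3504 to 4177 RPKM in microglia and 61.6 to 95.5 RPKM in macrophages, with all 8 at 1 RPKM or more in microglia. In BV2 cells they summed to 25.5 to 118 RPKM with only 1 or 2 of 8 at 1 RPKM or more. P2ry12, the purinergic receptor that defines resting microglia, was at 0 to 0.061 RPKM in BV2 cells and at 477 and 410 RPKM in microglia. In bulk RNA, fewer cells of a type and less RNA per cell cannot be told apart.

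The promoters of 4 members are shown, those with an entry whose distance to the gene's end matched the transcript used. Among them, the wild-type and mutant fragments differ in H3K4me2 over the Egr2 start. A factor peak called with the mutant fragment alone overlaps the promoter of Nr4a1, Ier3 and Btg2. A PU.1 peak called with the empty vector alone overlaps that of Btg2 as well. The share of all promoters with such peaks was not counted. RefSeq promoters (GRCm38.p6, 250 bases before to 50 after the start) were found for 6 of the 9 members. For 4 of them the distance from the start to the gene's end was within 1 base of the genomic span of the transcript used. Starts themselves were not compared, since the genome builds differ. Promoters of Egr1, Egr3 and Ier2 are not shown. Capitals mark any match, on either strand, of 10 motifs: the CRE half-site TGACG, the full CRE TGACGTCA (which holds the half-site on both strands), the CArG box bound by SRF, the EGR site GCGNGGGCG, the NR4A element AAAGGTCA, the GC box GGGGCGGGG, the NF-kB consensus, a PU.1 site GAGGAAGT, a C/EBP site TTGCNNAA and the TATA box TATAAA.
Egr2, chr10:67537619-67537918, plus strand: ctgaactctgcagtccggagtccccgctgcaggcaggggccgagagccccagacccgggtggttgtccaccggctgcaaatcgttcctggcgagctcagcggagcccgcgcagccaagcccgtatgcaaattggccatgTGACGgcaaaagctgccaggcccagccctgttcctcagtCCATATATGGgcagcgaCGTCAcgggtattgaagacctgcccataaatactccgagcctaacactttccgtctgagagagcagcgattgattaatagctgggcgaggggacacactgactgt
Nr4a1, chr15:101266596-101266895, plus strand: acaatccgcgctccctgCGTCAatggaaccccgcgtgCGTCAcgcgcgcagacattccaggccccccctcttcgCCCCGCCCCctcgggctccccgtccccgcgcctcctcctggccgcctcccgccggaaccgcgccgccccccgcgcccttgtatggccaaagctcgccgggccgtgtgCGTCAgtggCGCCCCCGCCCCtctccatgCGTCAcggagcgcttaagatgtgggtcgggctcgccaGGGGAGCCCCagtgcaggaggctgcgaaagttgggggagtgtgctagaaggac
Ier3, chr17:35821463-35821762, plus strand: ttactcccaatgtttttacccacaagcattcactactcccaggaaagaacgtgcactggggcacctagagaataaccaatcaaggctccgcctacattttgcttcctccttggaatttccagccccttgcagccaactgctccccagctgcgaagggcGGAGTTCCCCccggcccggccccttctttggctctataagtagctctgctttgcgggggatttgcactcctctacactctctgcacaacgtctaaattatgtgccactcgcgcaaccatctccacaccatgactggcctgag
Btg2, chr1:134079106-134079405, minus strand: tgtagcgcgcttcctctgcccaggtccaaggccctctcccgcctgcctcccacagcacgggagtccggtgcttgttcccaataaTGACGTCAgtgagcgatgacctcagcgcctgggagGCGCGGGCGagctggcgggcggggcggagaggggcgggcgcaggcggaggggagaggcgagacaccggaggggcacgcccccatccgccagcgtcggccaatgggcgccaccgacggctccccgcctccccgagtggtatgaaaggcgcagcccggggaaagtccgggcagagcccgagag

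With the start base counted as 0, the Egr2 promoter held a CArG box at -72 to -63, between CRE half-sites at -111 and -55. A CArG box was found in 1.63% of 32851 promoters of this length, and a CRE half-site in 20.8%. Nr4a1 had 4 CRE half-sites, at -233, -213, -69 and -40, an EGR site at -60 that overlaps a GC box, another GC box at -176, and an NF-kB match across the start at -3. EGR sites were found in 5.55% of all promoters and GC boxes in 11.4%. Btg2 had a full CRE at -166 to -159 and an EGR site at -131, and 1.79% of all promoters had a full CRE. Ier3 had 1 match, of the NF-kB consensus at -92 to -83, which 4.51% of all promoters held. None of the 4 held these letters for the NR4A element, PU.1, C/EBP or the TATA box, found in 1.51%, 3.2%, 10.8% and 13.6% of promoters. The GC content was 60% for Egr2, 72.3% for Nr4a1, 54.0% for Ier3 and 72.0% for Btg2, against a median of 52.7% over all promoters. A match describes the letters only.

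The first question is where these genes are expressed. Microglia held 7 of the 9 at high levels, and Btg2 and Egr1 were among the most abundant transcripts there, while BV2 cells held only Ier3 and Ier2 above 5 RPKM in every library. Values below are given for the empty vector (24 h, second time), the wild-type fragment (24 h, second time) and the mutant fragment (24 h, second time), then for microglia and macrophages (Q7/7, Q175/175).

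Egr1, the best-known immediate early factor, lies on chromosome 18 at 35020861 to 35024610 (mm9, plus strand). It was at 0.147 and 0.047, 0.074 and 0.103, and 0 and 0.03 RPKM in BV2 cells, at 149 and 178 RPKM in microglia and at 2.92 and 2.06 RPKM in macrophages. The BV2 values rest on 0 to 5 reads a library, and the mutant-fragment library at 0 allows up to 0.0712 RPKM (3 reads). Both mutant-fragment libraries were below all 4 controls, with 1 read in total against 14. Egr1 was too low to be tested in BV2 cells, and such counts do not order the constructs. In microglia it ranked 85th and 67th among all genes, above every BV2 and macrophage library.

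Egr2, a factor also used in macrophage and glial differentiation, lies on chromosome 10 at 67000617 to 67004936 (plus strand). Its levels were 1.85 and 1.13, 1.77 and 1.07, and 0.615 and 0.471 RPKM in BV2 cells, 18.8 and 22.2 RPKM in microglia and 4.87 and 3.34 RPKM in macrophages. Both mutant-fragment libraries were below all 4 control libraries, and the 3 cell types did not overlap. Egr3, which is often induced together with Egr1, lies on chromosome 14 at 70477252 to 70479964 (plus strand). It stood at 0.064 and 0.253, 0.108 and 0.056, and 0.155 and 0.066 RPKM in BV2 cells (1 to 5 reads a library), at 8.99 and 22.7 RPKM in microglia and at 0.281 and 0.889 RPKM in macrophages. Microglia were above all other libraries, and the constructs overlapped.

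Nr4a1, the NR4A receptor most studied in macrophages, lies on chromosome 15 at 101097277 to 101105225 (plus strand). It was at 2.77 and 3.96, 2.28 and 3.52, and 0.236 and 0.678 RPKM in BV2 cells, at 8.46 and 11.4 RPKM in microglia and at 1.41 and 1.12 RPKM in macrophages. The mutant-fragment libraries, with 8 and 18 reads against 74 to 137 in the controls, were the lowest of all 10. Control BV2 cells stood above macrophages, an order shared only with Ier3 among the 9.

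Nr4a2 (chromosome 2, 56959637 to 56976414, minus strand), best known for dopamine neurons, was at 0.031 to 0.242 RPKM in all 10 libraries. No cell type stood clearly apart: microglia, at 0.174 and 0.242 RPKM, overlapped macrophages, at 0.186 and 0.132 RPKM. In BV2 cells the mutant-fragment libraries (0.097 and 0.031 RPKM, 4 and 1 reads) lay below the controls (0.105 to 0.166 RPKM, 4 to 7 reads). Nr4a3 (chromosome 4, 48064120 to 48096224, plus strand), the third receptor, had no read in the 4 BV2 control libraries, which allows up to 0.114 to 0.144 RPKM (3 reads a library). It had 2 and 1 reads with the mutant fragment (0.078 and 0.049 RPKM), 14 reads in each microglial library (0.218 and 0.259 RPKM) and 0 and 9 reads in macrophages (0 and 0.1 RPKM). Such counts show that both receptors were low everywhere and do not order the constructs.

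Ier2 (chromosome 8, 87185230 to 87186751, minus strand) was at 5.62 and 7.42, 6.10 and 6.55, and 6.76 and 6.24 RPKM in BV2 cells, at 112 and 114 RPKM in microglia and at 22.2 and 16.0 RPKM in macrophages. The constructs overlapped, and the 3 cell types did not. Ier3 (chromosome 17, 35958658 to 35959856, plus strand) was at 28.4 and 17.2, 29.2 and 17.5, and 46.5 and 18.6 RPKM in BV2 cells, at 32.6 and 50.6 RPKM in microglia and at 6.27 and 7.94 RPKM in macrophages. It was the most abundant member in BV2 cells, where the mutant-fragment library of 24 h was the highest. Btg2 (chromosome 1, 135971442 to 135975732, minus strand) was at 1.67 and 1.39, 1.75 and 1.54, and 3.95 and 2.90 RPKM in BV2 cells, at 362 and 349 RPKM in microglia and at 26.1 and 11.6 RPKM in macrophages. Both mutant-fragment libraries were above all 4 controls, and Btg2 was the 35th and 33rd most abundant gene in microglia.

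**Figure D1:**
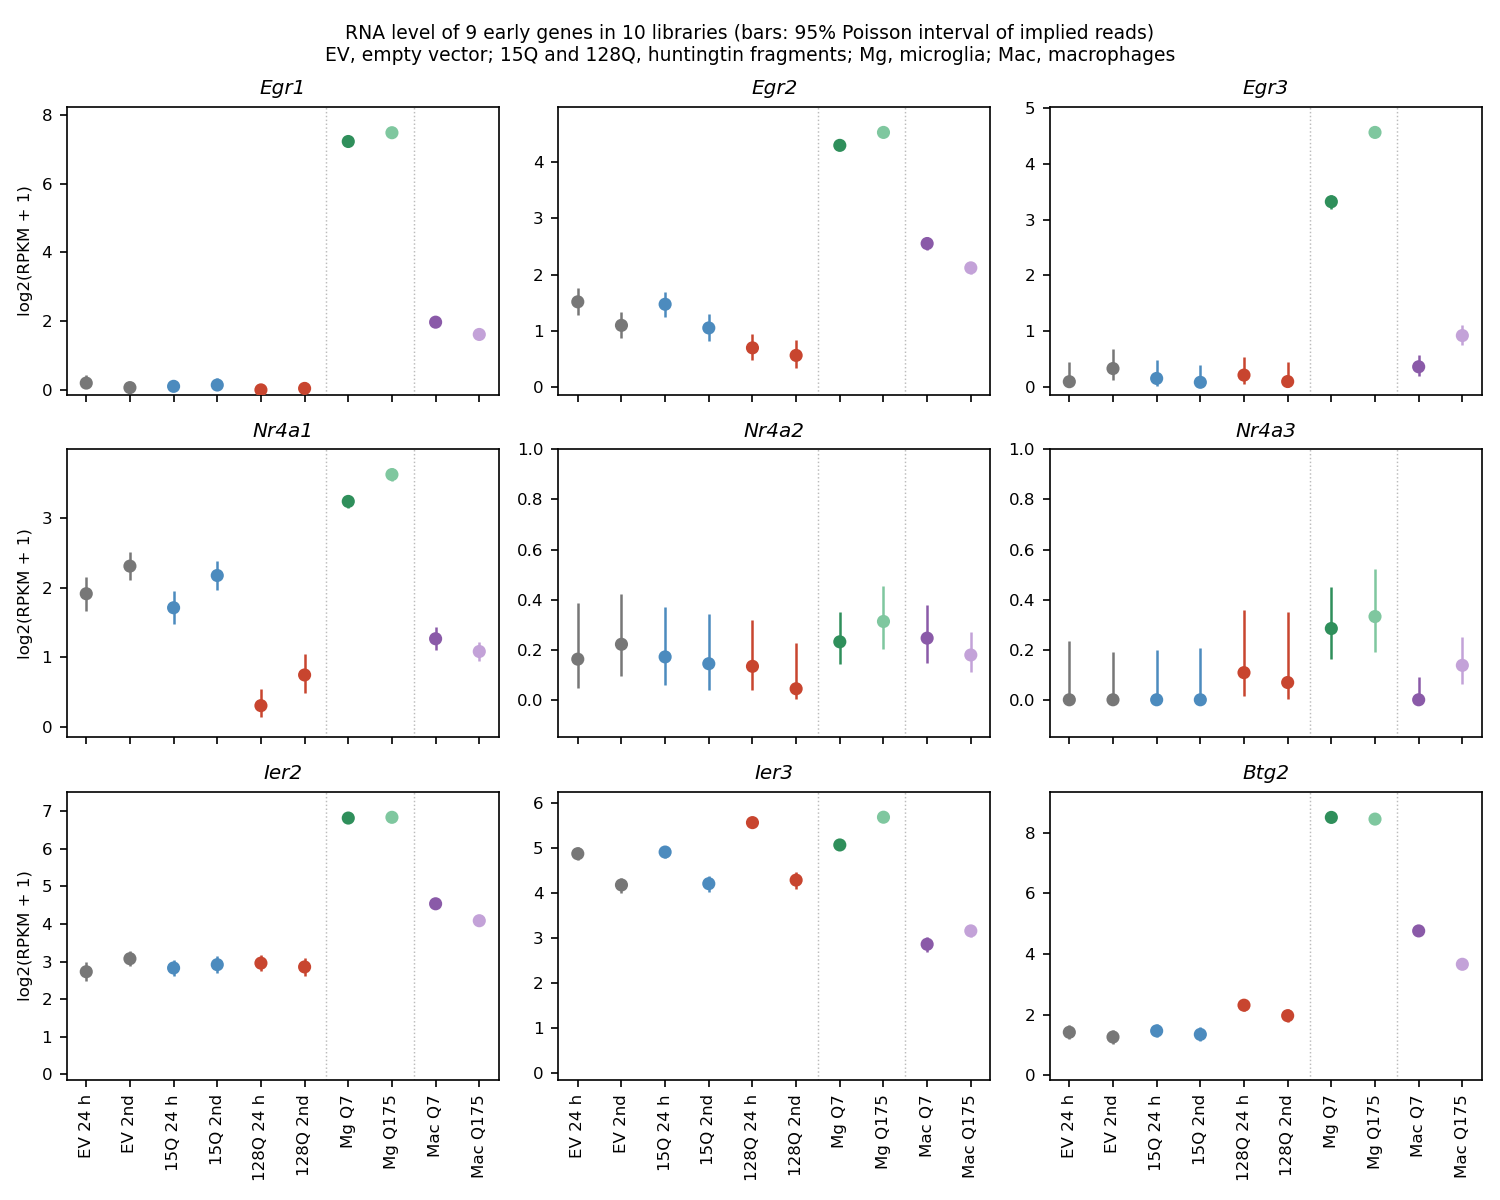
RNA level of each member as log2(RPKM + 1), vertical axis, in the 10 libraries, horizontal axis; points are single libraries, bars are 95% Poisson intervals of the implied reads (counting error only), and vertical scales differ between panels. The microglial points (149 and 178 RPKM for Egr1, 362 and 349 RPKM for Btg2) stand above all others, and the 128Q points of Nr4a1 (0.236 and 0.678 RPKM) lie below all others in its panel.

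Within a group the order of levels per length was not the same across cell types. In BV2 controls it ran Ier3, Ier2, Nr4a1, then Btg2 and Egr2, whose ranges (1.39 to 1.75 and 1.07 to 1.85 RPKM) overlapped, then Nr4a2, Egr3 and Egr1, which also overlapped, and Nr4a3. In microglia it ran Btg2, Egr1, Ier2 and Ier3 without overlap, then Egr2 and Egr3, whose ranges (18.8 to 22.2 and 8.99 to 22.7 RPKM) overlapped, and Nr4a1, which overlapped Egr3. In macrophages Ier2 and Btg2 overlapped at the top and were followed by Ier3, Egr2, Egr1, Nr4a1 and Egr3 without overlap. With 2 libraries a cell type, neighbours that do not overlap are ordered only over these libraries.

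The comparison of the mutant fragment with both controls asks which members the expanded glutamine tract moves in BV2 cells. Nr4a1 fell, and it was the only member past the threshold. Of the 9 members, 5 (Egr2, Nr4a1, Ier2, Ier3 and Btg2) reached 1 RPKM in at least 2 BV2 libraries and were tested, among 10350 genes, with limma on log2(RPKM + 1), a scale that understates the fold change of low genes. Nr4a1 was lower by 1.50 on that scale (log2 difference -1.50, SE 0.14, 2.83-fold, 2 mutant against 4 control libraries, Benjamini-Hochberg adjusted p = 0.0456 in limma). Nr4a1 and Egr2 were below 1 RPKM in both mutant-fragment libraries, so they entered the test only through the controls, and with no filter on low values the adjusted p of Nr4a1 was 0.138 in limma. The difference was -1.51 within 24 h and -1.50 within the second time, so both times gave about the same size. Over all genes 0.058% were called lower and 0.29% higher, and Nr4a1 stood 26th by p.

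Btg2 had a log2 difference of 0.77 (SE 0.14, limma adjusted p = 0.112), with 0.87 at 24 h and 0.66 at the second time. For Egr2 it was -0.66 (SE 0.15, limma adjusted p = 0.132), with -0.80 and -0.51. Neither passed the threshold, although the mutant libraries did not overlap the controls. Of the 5 tested members, Egr2 and Nr4a1 were below all 4 controls, as were 14.5% of all tested genes, and Btg2 was above all 4, as were 12.3%. Ier3 had 0.38 (SE 0.19, limma adjusted p = 0.330), which came from 24 h (0.67) more than from the second time (0.09). Ier2 had 0.02 with a 95% interval of -0.40 to 0.44 (limma adjusted p = 0.959), so a change of up to about that size could not be seen here.

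The Nr4a1 call was close to the threshold. Set against the empty vector alone the log2 difference was -1.59 (limma adjusted p = 0.0740) and against the wild-type fragment alone -1.42 (0.0881), and a pseudocount of 5 gave -0.57 (0.104). Leaving out a mutant-fragment library takes the error from the control libraries alone, and calls then spread over many genes. Without that of 24 h limma called 3 members (Nr4a1 and Egr2 lower, Btg2 higher), along with 13.3% of all tested genes lower and 7.12% higher. Without that of the second time it called 4 (Ier3 as well, higher), along with 17.6% lower and 19.5% higher.

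In 1 of these libraries, 1 gene of the granulocyte marker list stood high. The 7 genes of the list summed to 219 RPKM in the mutant-fragment library of 24 h and to 1.13 to 6.16 RPKM in the other 5 BV2 libraries. Lcn2 (lipocalin 2, also an inflammation-induced gene) made up 219 RPKM of it, while S100a9, Elane and Mpo were at 0 there. Camp and Ngp were at 0.123 and 0.126 RPKM. S100a8 went the other way, at 0.376 RPKM there and 0.785 to 3.84 RPKM in the other BV2 libraries. The part of what sets this library apart in the member values was not tested.

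The wild-type fragment against the empty vector is the control comparison. Differences of the 5 tested members lay between -0.17 (Nr4a1, 95% interval -0.57 to 0.24) and 0.07 (Btg2, -0.36 to 0.49). No member passed in limma and none did at an unadjusted p under 0.05, and no member had both wild-type-fragment libraries above or below both empty-vector libraries, which 11.8% of tested genes did. Over all 10350 genes 0 were called in either direction (0%), and 66 (0.638%) had an unadjusted p under 0.05.

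The second time was then compared with 24 h across the 3 constructs. Ier3 was at 17.2, 17.5 and 18.6 RPKM at the second time and at 28.4, 29.2 and 46.5 RPKM at 24 h (pCDH, Nwt and Nmu). The 2 times did not overlap, as in 8.68% of tested genes below and 24% above. Its log2 difference was -0.89 (SE 0.18, limma adjusted p = 0.0721). Nr4a1 had 0.43 (SE 0.13, limma adjusted p = 0.122) and lay higher at the second time in 3 of 3 constructs, by 0.40, 0.46 and 0.44. Egr2 had -0.33 (limma adjusted p = 0.219), lower in 3 of 3 constructs. No gene of the 10350 passed (0%), while 2812 (27.2%) had an unadjusted p under 0.05. When either mutant-fragment library was left out, limma called 3 members (Ier3 and Egr2 lower, Nr4a1 higher). Of all tested genes it then called 14.2% lower and 30.8% higher without that of 24 h, and 14.2% lower and 30.7% higher without that of the second time.

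**Figure D2:**
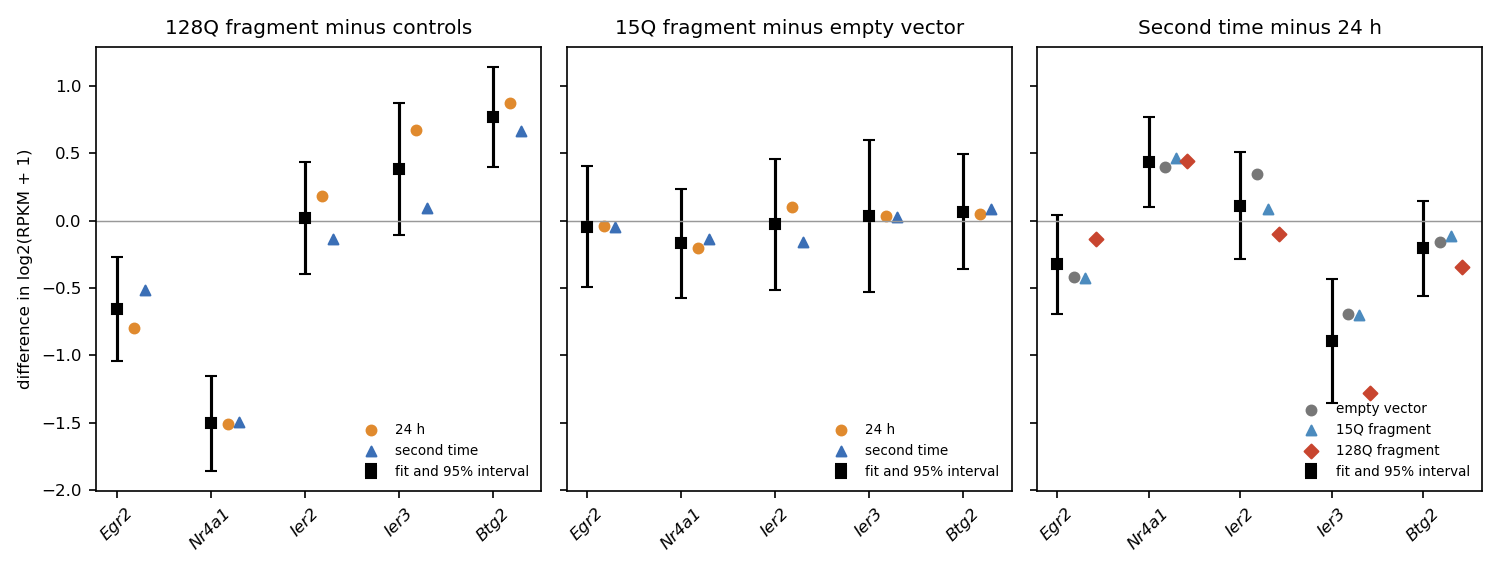
Difference in log2(RPKM + 1), vertical axis, for the 5 members tested in BV2 cells, horizontal axis; black squares are the limma estimates with 95% intervals, coloured points are the differences within a time or a construct. In the left panel Nr4a1 sits at -1.50 with both times beside it, and in the middle panel all 5 estimates lie between -0.17 and 0.07.

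Other genes of the early response were read from lists in the same way. In the mutant-fragment comparison no gene of the 7 lists passed in limma, and the share with an unadjusted p under 0.05 over all genes was 20.2%. Of 14 tested AP-1 and related early factors, 7 had an unadjusted p under 0.05. Atf3 (stress-induced, log2 difference 1.29) and Jund (an AP-1 subunit, 1.19) were at the top and Klf2 (-1.17) and Klf10 (-0.60), Krüppel-like factors, at the bottom, with a list median of 0.12 against 0.00 for all genes. Of 21 feedback regulators, 9 had an unadjusted p under 0.05, with a median of 0.02. Gadd45a (growth arrest, 2.23) and Dusp1 (a p38 and JNK phosphatase, 1.94) were at the top, and Zfp36l1 (a messenger RNA decay factor, -1.38) and Dusp6 (an ERK phosphatase, -0.98) at the bottom. For Dusp1 the empty vector gave 0.511 and 0.664 RPKM, the wild-type fragment 0.824 and 0.856 RPKM and the mutant fragment 10.1 and 2.88 RPKM. Its mutant libraries were above all controls.

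The 5 EGR and NR4A partners all had negative differences. Nab2 (a corepressor of EGR factors and itself an EGR target) was at -0.82, Rxra (a partner of NR4A receptors) at -0.58, Nab1 at -0.34 and Rxrb at -0.14, with a median of -0.40. For the BTG/TOB family and the CCR4-NOT deadenylase (11 tested, median -0.17), Btg3 (1.10) and Btg1 (0.81) were highest and the deadenylase subunits Cnot7 (-0.59) and Cnot6l (-0.52) lowest. The upstream lists lay nearer to 0. SRF and its partners ran from Elk3 (-0.45) and Elk1 (-0.11) to Srf (0.22) and Mkl1 (0.23), CREB and its coactivators from Creb1 (-0.44) and Crtc3 (-0.15) to Crtc2 (0.22) and Crebbp (0.41), and the ERK, p38 and JNK cascade from Mapk3 (-0.66) and Mapk14 (-0.47) to Map2k2 (0.19).

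In the primary cells the first comparison is of microglia with macrophages. All 7 tested members were higher in microglia: Egr1, Egr2, Egr3, Nr4a1, Ier2, Ier3 and Btg2. Nr4a2 and Nr4a3 were below the filter. Among 10687 tested genes limma called 18.2% higher and 49.2% lower, with a median difference of -0.53, and 69.6% had an unadjusted p under 0.05. Egr1 had the largest log2 difference, 5.57 (47.4-fold on the log2(RPKM + 1) scale, limma adjusted p = 5.76e-95), followed by Btg2 with 4.27 (19.3-fold, 1.03e-56) and Egr3 with 3.30 (9.88-fold, 1.38e-34). Egr3, below 1 RPKM in both macrophage libraries, entered the test only through microglia. Ier2 had 2.52, Ier3 2.37, Nr4a1 2.26 and Egr2 2.08, with Egr2 the smallest of the 7 (4.24-fold, limma adjusted p = 1.70e-14). Both microglial libraries were above both macrophage libraries for all 7, as for 25.5% of tested genes, while 60.1% had both below.

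Each difference held in both genotypes, being 5.26 in Q7/7 and 5.87 in Q175/175 cells for Egr1, 3.75 and 4.79 for Btg2 and 1.75 and 2.42 for Egr2. The fit has 4 libraries and 1 residual degree of freedom, and limma gave every gene the same SE of 0.26, so 1 common spread lies behind all of these p-values. With no filter on low values no gene passed, and the 7 members had limma adjusted p-values of 0.116 to 0.188. Quantile normalization moved the median of all genes from -0.53 to 0.01 and the share of higher among called genes from 27% to 50.2%, and the members then lay at 2.81 (Nr4a1) to 5.86 (Egr1), with all 7 called higher.

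Granulocyte markers differed between the same libraries. They summed to 1737 and 555 RPKM in microglia (Q7/7, Q175/175) and to 421 and 211 RPKM in macrophages, with 7 of 7 genes at 1 RPKM or more in all 4. Their part in the member differences was not tested. In microglia S100a8, a calcium-binding protein of neutrophils, was at 816 and 252 RPKM, Btg2 at 362 and 349 RPKM and Egr1 at 149 and 178 RPKM. Astrocyte and neuron lists had no gene at 1 RPKM in microglia, and lymphocyte markers summed to at most 0.123 RPKM. Oligodendrocyte markers summed to 6.96 to 7.74 RPKM in microglia and 4.92 to 7.42 RPKM in macrophages, and endothelial markers to 2.03 to 2.99 and 0.662 to 0.952 RPKM.

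The AP-1 and other early factors were the list that lay highest in microglia. Of 15 tested, 12 rose and 2 fell, with a median of 2.40 (2.95 after quantile normalization, with the same counts). Fosb (4.82) and Jun (4.24), AP-1 subunits, were highest, and Bhlhe40 (-1.45) and Klf10 (-1.22), both transcriptional repressors, lowest. Fos, the AP-1 partner of JUN, was at 586 and 635 RPKM in microglia, 62.0 and 42.3 RPKM in macrophages and 1.38 to 2.04 RPKM in BV2 cells. Also called higher were Atf3, Csrnp1, Junb, Jund, Klf2, Klf4, Klf6, Maff and Myc. The feedback regulators were mixed: 11 of 21 rose, led by Plk3 (4.62) and Dusp1 (3.22), and 6 fell, led by Plk2 (-4.01) and Dusp4 (-2.67), or 13 and 4 after quantile normalization.

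Upstream genes were mixed. In the ERK, p38 and JNK cascade 0 of 10 were called higher and 5 lower, among them Map2k1, Mapk3 and Mapk9, with a median of -0.56 against -0.53 for all genes. After quantile normalization 2 were called higher and 1 lower, with a median of 0.14 against 0.01, so the direction of this list depends on the scaling. For SRF and its partners 0 rose and 2 fell (Mkl2 -1.51, Elk1 -1.11), with a median of -0.14, and after quantile normalization 2 rose and 2 fell, with a median of 0.35. Of the CREB list, Crebbp (1.05) and Crtc2 (0.83) rose and Crem (-0.69) fell, with a median of -0.11, and after quantile normalization 3 rose and 1 fell, with a median of 0.33. The EGR corepressors Nab1 (-2.64) and Nab2 (-2.47) fell, opposite to the EGR genes, under both scalings, while Rxra (1.09), Rxrb (1.18) and Nr3c1, the glucocorticoid receptor, rose. Btg1, the closest relative of Btg2, rose by 2.86, and Cnot6 (-2.49) and Cnot8 (-2.15) fell, with 2 of 10 genes of that list higher and 5 lower, or 3 and 3 after quantile normalization.

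The comparison of Q175/175 with Q7/7 cells asks what the knocked-in expansion changes. No member passed in limma over the 2 cell types, where 0.112% of genes were called higher and 0.225% lower. An unadjusted p under 0.05 was found for 283 genes (2.65%). Egr3 had the largest difference, 0.90 (SE 0.26, limma adjusted p = 0.124), and Btg2 -0.58 (limma adjusted p = 1.00) and Ier3 0.46 (limma adjusted p = 1.00) followed. The other 4 lay between -0.22 (Ier2) and 0.10 (Nr4a1).

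Within a cell type there is 1 library each side, so differences are given with no test. The granulocyte markers also differed between these libraries. They summed to 1737 RPKM in Q7/7 and 555 RPKM in Q175/175 microglia, and to 421 and 211 RPKM in macrophages. Their part in the genotype differences was not tested. In microglia Egr3 was at 22.7 RPKM in Q175/175 and 8.99 RPKM in Q7/7 cells (920 against 435 reads), a log2 difference of 1.24, past 2-fold, as in 0.178% of tested genes (0.505% were past 2-fold on the lower side). In macrophages it was at 0.889 against 0.281 RPKM (60 against 12 reads), 3.16-fold in RPKM. On log2(RPKM + 1), which shrinks changes at such low levels, that is 0.56, and 1.31% of genes were past 2-fold on that scale. Egr3 was thus higher in the mutant library of both cell types, as was Ier3, by 0.62 and 0.30. Btg2 in macrophages was at 11.6 RPKM in Q175/175 and 26.1 RPKM in Q7/7 cells, a difference of -1.10, past 2-fold on the lower side as in 0.636% of genes, and it hardly differed in microglia (-0.06). Egr1 and Egr2 lay higher in Q175/175 microglia (0.26 and 0.23) and lower in Q175/175 macrophages (-0.36 and -0.43).

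**Figure D3:**
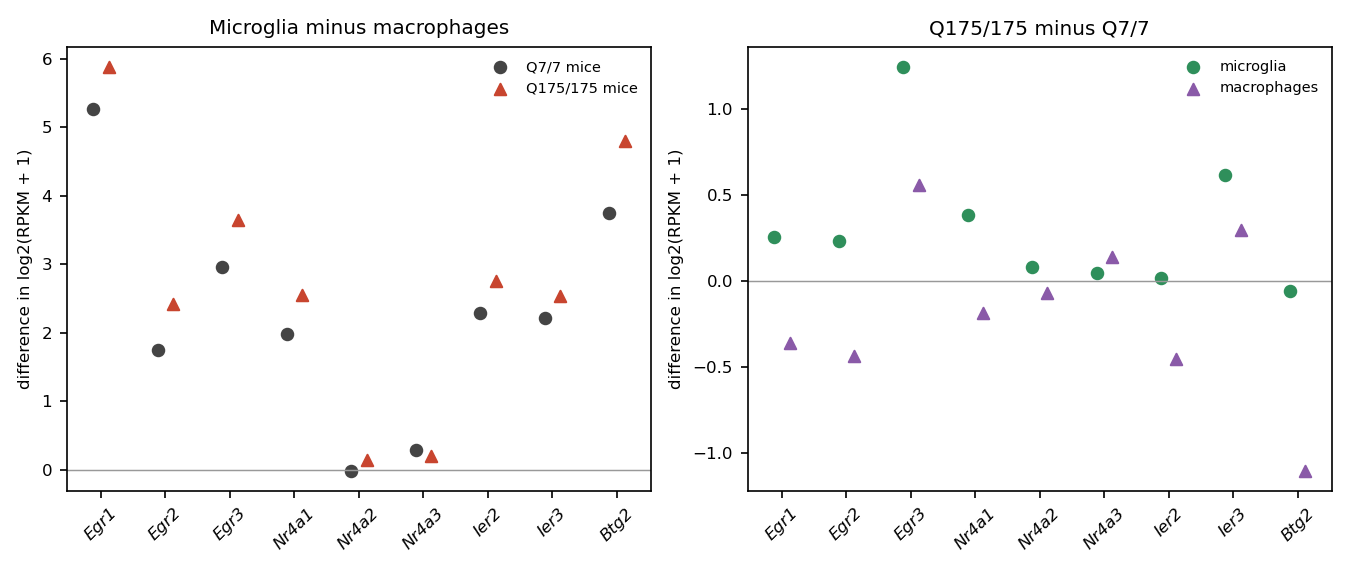
Difference in log2(RPKM + 1), vertical axis, for the 9 members, horizontal axis, between cell types within a genotype (left) and between genotypes within a cell type (right); each point is 1 library against 1. On the left 7 members lie between 1.75 and 5.87 and Nr4a2 and Nr4a3 near 0, and on the right Egr3 in microglia (1.24) and Btg2 in macrophages (-1.10) lie farthest from 0.

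Likeness of pattern was taken as Pearson's r of log2(RPKM + 1) over the 10 libraries, which share cell type differences, among 11235 genes. It is a description. Egr1 was most like Hpgd (r = 0.999), a prostaglandin dehydrogenase, and Pde3b (0.999), a phosphodiesterase, both at or near 0 in BV2 cells. Egr2 was most like Ddx26b (0.995) and Zfp36 (0.994), the decay factor tristetraprolin, and Egr3 like Epb4.1l3 (0.997) and Capns2 (0.992). Zfp36 was at 9.50 and 4.99, 10.0 and 5.87, and 2.81 and 4.06 RPKM in the BV2 libraries, lower in both mutant-fragment libraries as Egr2 was. Nr4a1 had no such close neighbour and was nearest to Ulk1 (0.942), a kinase that starts autophagy, and Kif21b (0.936), a kinesin. Nr4a2 was nearest to LOC106740 (0.937) and Zfp383 (0.891), and Nr4a3 to Zfp398 (0.979) and Thap6 (0.973). The patterns of these 2 members rest on 1 to 21 reads a library for Nr4a2 and 0 to 14 for Nr4a3, so counting error is large in them. Ier2 was nearest to Zkscan7 (0.998) and Il21r (0.997), and Ier3 to Ank2 (0.977) and Arsg (0.967). Btg2 was nearest to Csf3r (0.994), the receptor for the granulocyte growth factor G-CSF, and Sgk1 (0.994), a kinase induced by glucocorticoids.

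Among the members, Ier2 was the 7th most like Btg2 (r = 0.992) and Egr1 the 31st most like Ier2 (0.989). The correlations of Ier3 with Egr1, Egr2, Egr3, Nr4a1, Ier2 and Btg2 were 0.195 to 0.436, and Ier3 was the member that stood higher in BV2 controls (17.2 to 29.2 RPKM) than in macrophages (6.27 and 7.94 RPKM) together with Nr4a1. Those of Nr4a1 with Egr1, Egr2, Egr3, Ier2 and Btg2 were 0.624 to 0.774.

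Chromatin near the members was read from the peaks the authors called in BV2 cells, 1 library for each antibody and construct, so presence or absence has no replicate and no test. H3K4me2 marks active promoters and enhancers, PU.1 is the master factor of myeloid cells, and C/EBPα and C/EBPβ are myeloid partners of it. Peaks that overlapped between constructs were joined into sites. Within 20 kb of the 9 starts lay 61 sites of PU.1, 27 of C/EBPα, 65 of C/EBPβ and 39 of H3K4me2. Each member had at least 1 site for each antibody, as had 74.6%, 41.9%, 69.9% and 68.5% of 22736 genes. A site called with all 3 constructs was near 8 members for PU.1, 3 for C/EBPα, 9 for C/EBPβ and 9 for H3K4me2, and near 55%, 15.2%, 46.4% and 63.1% of all genes. Of the factor sites, 51 of 61 (PU.1), 24 of 27 (C/EBPα) and 54 of 65 (C/EBPβ) overlapped an H3K4me2 site. The factor and the mark could be called with different constructs there, and the share over all factor sites was not counted.

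H3K4me2 was largely shared, with 33 of the 39 sites called with all 3 constructs (84.6%, against 64.2% of all H3K4me2 sites). A peak covered the start of Nr4a1, Ier2, Ier3 and Btg2 with each construct. The Egr2 start was covered with the empty vector (3535 bases wide, -2970 to 564) and the mutant fragment (626 bases, -118 to 507) but not with the wild-type fragment, where the peak ended at -523. Over all genes 29% (pCDH), 26% (Nwt) and 24.7% (Nmu) had a peak over the start. No peak covered the start of Egr1, Egr3, Nr4a2 or Nr4a3, the 4 members with the least RNA in BV2 cells, but the mark lay close to most of them. The nearest peak ended at -469, -597 and -576 at Egr1 and at -718, -902 and -1626 at Egr3 (pCDH, Nwt and Nmu). At Nr4a2 peaks lay on both sides of the start, with pCDH at -985 to -345 and at 698 to 1694. At Nr4a3 the nearest ended at -4638, -4925 and -4929. The peak over the Nr4a1 start was 3552, 3032 and 2690 bases wide with pCDH, Nwt and Nmu, that of Ier3 5236, 5183 and 2921 bases, that of Btg2 3538, 3611 and 3749 bases and that of Ier2 4717, 3894 and 7607 bases. With the mutant fragment the peak over the start was thus the narrowest of the 3 at Nr4a1 and Ier3 and the widest at Btg2 and Ier2. The median width of all H3K4me2 peaks was 1318, 1233 and 1154 bases. At Ier2, Ier3 and Egr2 the mark was split into several called peaks with some constructs. Summed over the joined site, the widths were 7215, 6440 and 7607 bases at Ier2 and 5236, 5183 and 3832 bases at Ier3. At Egr2 they were 3535, 2194 and 2687 bases. The order at Ier2 and Ier3 thus held, with smaller contrasts.

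Nr4a1 was lower in both mutant-fragment libraries, with a call close to the threshold that several alternatives lost. Near it an H3K4me2 site centred at -10364 was called with both controls (1277 and 501 bases) and not with the mutant fragment. Such a site was found near 2 of the 9 members (Egr1 and Nr4a1) and near 7.09% of all genes. C/EBPβ sites at -3973 and 15819 and a PU.1 site at 17175 were called with both controls alone. Called with the mutant fragment alone were a C/EBPβ peak across the start (-98 to 46), PU.1 sites at -5073 and -2317 and a C/EBPα site at 16515. Sites called with both controls and not the mutant fragment were near 3 members for PU.1, 3 for C/EBPα and 4 for C/EBPβ, against 14.5%, 10.4% and 12.9% of all genes.

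Btg2, higher but not past the threshold with the mutant fragment, had a PU.1 peak at -305 to -171 and a C/EBPβ peak at -250 to -106 called with that construct alone. The peaks overlap each other, and by distance from the start the C/EBPβ peak spans the CRE and the EGR site of the printed promoter. PU.1 sites centred at 86 (empty vector) and -500 (wild-type fragment) were each called with 1 control alone, so each construct had a PU.1 peak of its own near this start. Btg2 also had a PU.1 site at -2228 and a C/EBPβ site at -19005 of this kind, and a C/EBPβ site at -15260 called with both controls alone. At Ier3 a PU.1 peak at -154 to -20, across the NF-kB match, and C/EBPβ sites at -7615 and -4801 were called with the mutant fragment alone, and a PU.1 site at -395 with the empty vector alone. At Egr2 C/EBPβ sites at -1016 and 11177 and a C/EBPα site at -19050 were, and at Ier2 a PU.1 site at -177 was called with both controls and not the mutant fragment, while 1 at 2800 was the reverse. Sites called with the mutant fragment alone were near 2 members for H3K4me2 (Egr3 and Ier2), 5 for PU.1, 3 for C/EBPα and 5 for C/EBPβ, against 13.1%, 27%, 4.27% and 18.6% of all genes.

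As a share of the sites near members, those called with the mutant fragment alone were 11.5% for PU.1, 11.1% for C/EBPα, 13.8% for C/EBPβ and 5.13% for H3K4me2. Over all sites the shares were 13.2%, 5.18%, 8.09% and 11.4%. The libraries differ in depth and enrichment. For C/EBPβ the share of tags in peaks was 8.09%, 23.0% and 24.3% (pCDH, Nwt and Nmu) and for C/EBPα 2.38%, 4.10% and 3.88%, and 22 of the 65 C/EBPβ and 12 of the 27 C/EBPα sites near members (33.8% and 44.4%) were called with the wild-type fragment alone, as were 30.9% and 37.4% of all sites. The part of these differences in what was called was not tested.

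**Figure D4:**
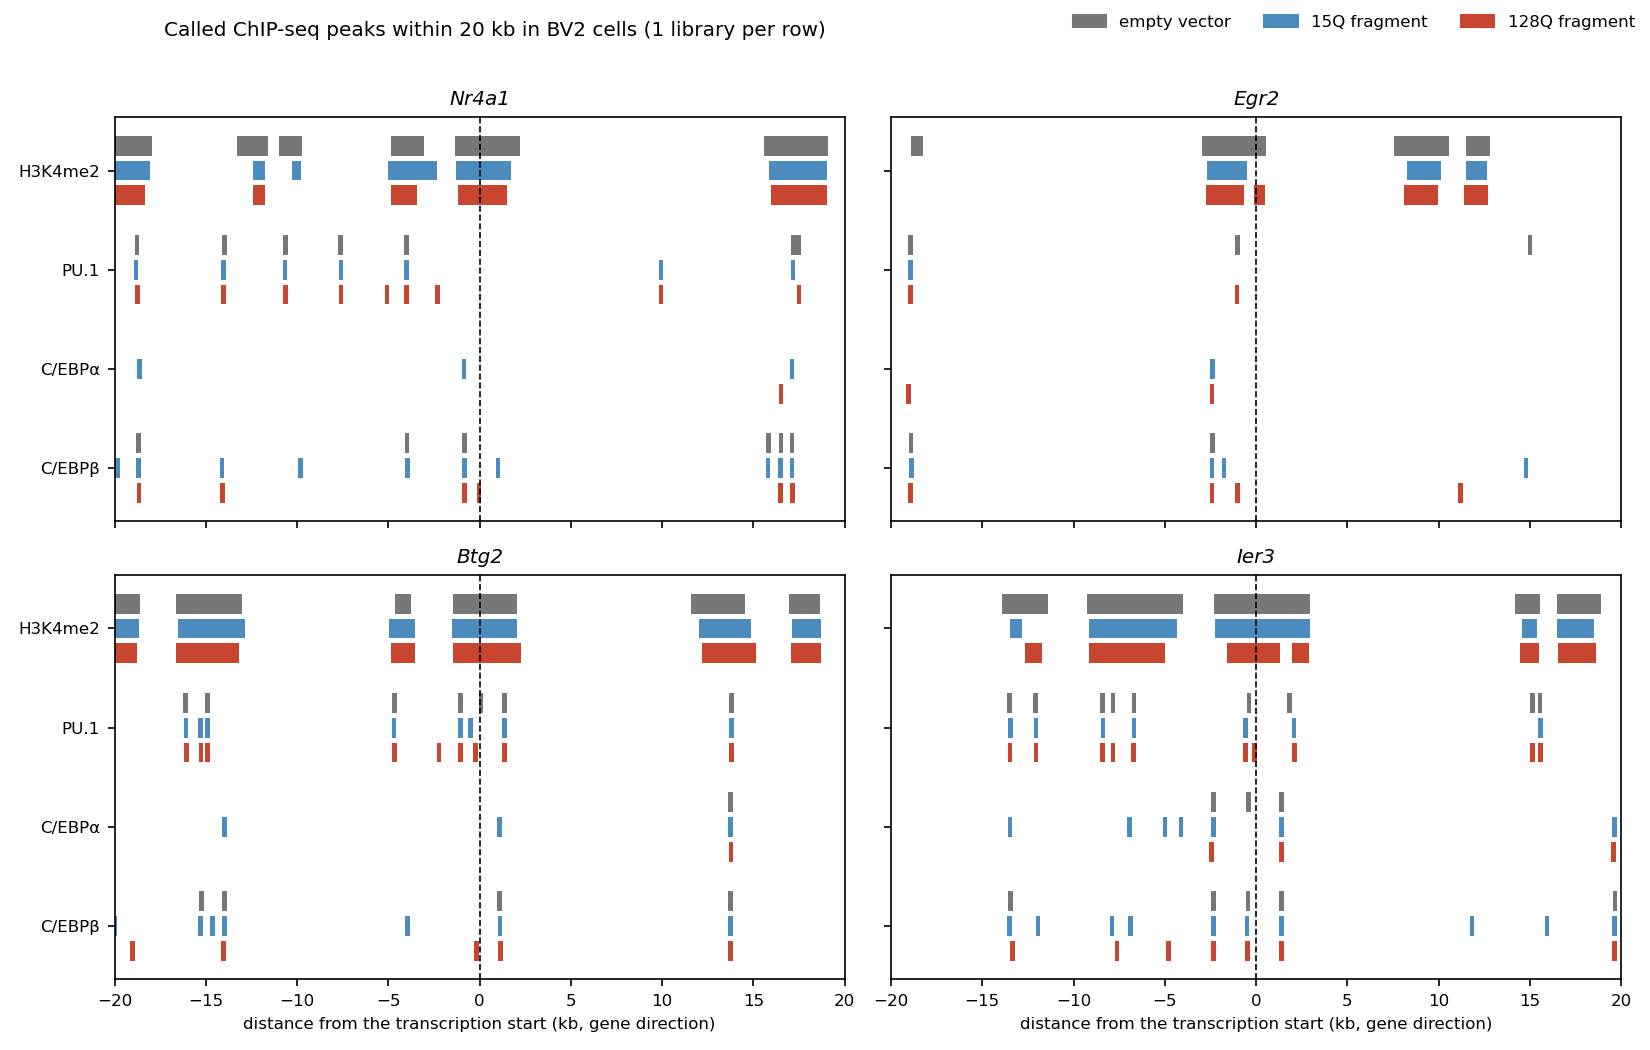
Called peaks near 4 members in BV2 cells, by distance from the transcription start in kb in the gene's direction (horizontal axis) for 4 antibodies (rows), with 1 coloured row for each construct; a box spans a peak. H3K4me2 boxes cover the starts of Nr4a1, Btg2 and Ier3 in all 3 constructs, and the C/EBPβ boxes over the Nr4a1 start (-98 to 46) and just before the Btg2 start (-250 to -106) stand in the mutant-fragment row alone.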

How the data were processed

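RNA was measured in 10 libraries and ChIP-seq peaks in 12. RPKM values were deposited by the authors, who used STAR 2.0.3e, HOMER and edgeR with mm9 for RNA per the submitters' processing notes, and every low value was a whole number of reads to within 0.1. Peak lists were deposited by the authors with a score of 1 for all peaks, and HOMER called them per library at 4-fold over input and 4-fold over local signal, per the file headers, with an input named after another macrophage source. Here 1 transcript was kept per symbol (that with the highest mean), genes reaching 1 RPKM in 2 or more libraries entered limma 3.58.1 (R 4.3.3) on log2(RPKM + 1), and p-values were Benjamini-Hochberg adjusted over all genes, with a threshold of 0.05. The BV2 fit had construct and time as terms (6 libraries, 2 residual degrees of freedom) and the primary fit cell type and genotype. The time term stands where a replicate block would, since libraries of 1 number share a time in the labels. Limma was also run on simulated data with changes set in well-expressed genes only, which does not bear on low genes such as Nr4a1 in BV2 cells. ChIP-seq sites were joined by an overlap of 1 base. Named are all members, the 2 highest and 2 lowest genes of each list and those called, and the 2 genes most like each member, apart from a few list genes not reported here. Members and lists were chosen with earlier results of these data known. Alternatives were other pseudocounts, filters, transcripts, normalizations, controls, windows and overlaps, and leaving out each library.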

Additional observations from a re-analysis of the deposited data

Results flagged for a closer look

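Egr1 and Egr2 differed between Q175/175 and Q7/7 mice in opposite directions in the 2 cell types. On the log2(RPKM + 1) scale Egr1 lay 0.26 higher in mutant microglia and its difference in macrophages was -0.36. For Egr2 the values were 0.23 and -0.43. Each value sets 1 library against 1, and the difference between the cell types was not tested. The granulocyte markers also differed between these libraries, and their part was not tested. Differences of at least 0.2 on both sides were listed.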

How the results depend on the processing

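The count of members called for the mutant fragment was 1 (Nr4a1) and became 0 with a pseudocount of 5, with no filter on low values, after quantile normalization, without the time term (no replicate block, limma adjusted p = 0.121 for Nr4a1), and with the empty vector or the wild-type fragment alone as control. It was 1 to 4 when 1 library was left out. Nr4a1 stayed lower in all 15 alternatives, between -1.94 and -0.57 (limma adjusted p from 0.00397 to 0.138). The second-time count was 0 and became 0 to 3 when 1 library was left out. In the microglia comparison the count of 7 became 0 with no filter, and 0 members turned lower in the alternatives that gave a value, 8 for Egr3 (below the filter without either microglial library) and 10 for each other member. The wild-type-fragment and genotype counts stayed at 0 wherever a test could be made; leaving out a primary library leaves no residual degrees of freedom, so it gave values with no test.

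No difference that turned sign was past the threshold. With all libraries they were Egr1 for the genotype (0.042 with a pseudocount of 5) and Ier2 at the second time (-0.044 after quantile normalization). When 1 BV2 library was left out, the lowest and highest values were -0.14 and 0.18 for Ier2 with the mutant fragment and -0.0061 and 0.22 for Ier2 at the second time. For the wild-type fragment they were -0.21 and 0.15 for Ier2, -0.12 and 0.028 for Egr2, -0.12 and 0.18 for Ier3, and -0.0015 and 0.13 for Btg2. When 1 primary library was left out, the genotype difference was that of 1 cell type, with no test, and also turned sign for Egr1 (-0.36 and 0.26), Egr2 (-0.43 and 0.23), Nr4a1 (-0.18 and 0.39) and Ier2 (-0.45 and 0.020).

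For peaks, the members with an H3K4me2 site called with the mutant fragment alone were 2, and 0 in a 10 kb window, 4 in a 50 kb window and 5 with an overlap of at least 0.5 of both intervals. H3K4me2 sites of both controls alone were near 2 members, and 1 in 10 kb and 4 in 50 kb. The PU.1 count of this kind went from 3 to 5 in 50 kb, the C/EBPβ count from 4 to 2 in 10 kb, and the C/EBPα count for the mutant fragment alone from 3 to 1 in 10 kb. A stricter peak threshold was not run, since the score does not rank peaks. The cause of these shifts was not tested. Depth limits Egr1, Egr3, Nr4a2 and Nr4a3 in BV2 cells to 0 to 7 reads a library.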

Other observations

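A second Nr4a2 transcript in the table had 0 to 0.144 RPKM in BV2 cells, 0.092 and 0.055 RPKM in microglia and 0.178 and 0.113 RPKM in macrophages, as low as the transcript used. Flt1, a receptor of endothelial growth factor that stood in the endothelial marker list, had RPKM values of 44.4 and 18.9 (pCDH), 44.1 and 20.6 (Nwt) and 8.53 and 12.1 (Nmu), while Pecam1 and Cdh5 of the same list were at no more than 0.069 RPKM in BV2 cells.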
